A study of Mus musculus with 32 samples.

Results

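The hippocampus and the amygdala of *Kmt2a*-HET mice were compared, both taken from the same 4 animals. The comparison takes 8 of the 32 poly(A) RNA-seq libraries of the series, chosen by their labels: 4 hippocampal libraries (HIP) and the 4 amygdalar libraries (AMY) of the same mice. It covers all 53715 genes of the tables except the 92 spike-in rows. *Kmt2a*-HET mice (*Kmt2a*+/-) carry 1 deleted copy of *Kmt2a* in every tissue, made, as the study's methods describe, by crossing mice with floxed exons to mice with a tamoxifen-inducible Cre at the *Rosa26* locus. They were adult male F1 hybrids of 129S1/SvImJ *Kmt2a*+/- fathers and C57BL/6J *Kdm5c*+/- mothers (129xB6), had inherited an intact *Kdm5c*, and both regions were microdissected. WT, *Kdm5c*-KO (*Kdm5c*-/y) and double-mutant mice (DM, both alleles) of the same cross, 4 animals each with both regions, served to ask whether a region difference differed by genotype, and the WT mice also as the reference for the *Kmt2a* level.

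The hippocampus is a folded sheet of pallial cortex in which dentate granule cells, CA3, CA2 and CA1 pyramidal neurons, all glutamatergic, form a relay used in spatial and episodic memory. The amygdala joins a cortex-like basolateral part to the central and medial nuclei, which are rich in GABA neurons of subpallial origin, express many neuropeptides and serve fear, social and feeding behaviour. KMT2A is a writer of methyl groups on lysine 4 of histone H3 (H3K4me) and KDM5C removes them.

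Counts assigned to genes ranged from 19322259 to 24831501 in the HIP libraries and from 20014675 to 26033593 in the AMY libraries, and between 21408 and 23206 genes had a count. No pair of replicates agreed within sampling noise. The first principal component of the 500 most variable genes carried 84.3% of the variance and separated the regions, with HIP libraries between 19.38 and 27.17 and AMY libraries between -23.00 and -20.53. On the second component, with 6.08%, HIP replicate 2 stood apart at -13.15. All levels below are counts normalised by DESeq2 size factors and listed from replicate 1 to 4, every difference is a log2 fold change of hippocampus over amygdala with its standard error (SE), and a gene is called at a DESeq2 adjusted *p* under 0.1. The fit has region as its only term, so counts, SEs and adjusted *p* are not those of a paired analysis unless mouse is named as a block. Where the 8 values of a gene are listed, the 4 of HIP and the 4 of AMY did not overlap unless an overlap is named.

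The labels were checked against lists of marker genes. Most markers of dentate granule, CA1 and CA3 cells were higher in HIP, but the AMY libraries also held genes that define neighbouring tissue. All 14 tested hypothalamic genes were called higher in AMY, beside 16.7% of all tested genes, and their summed level was 7250, 6344, 7538 and 5947 against 138, 76.7, 118 and 140.1 in HIP. *Hcrt*, the orexin precursor, and *Pmch*, the precursor of melanin-concentrating hormone, are made in the lateral hypothalamus. *Hcrt* had 178, 424, 380.1 and 493 in AMY and 1.11, 3.41, 3.77 and 0 in HIP. *Pmch* had 507, 802, 1077 and 1052 in AMY and 12.2, 3.41, 0 and 1.24 in HIP. All 15 tested genes of striatal spiny neurons were also higher in AMY, and their summed level was 72090, 43360, 36280 and 34490 against 11010, 10410, 7635 and 10920, with AMY replicate 1 highest. Several of these genes are also expressed in the central amygdala. The basolateral list did not mark the AMY label, since its summed level was 6794 to 8095 in AMY and 7212 to 7909 in HIP. Of 28 Hox genes in the tables, which mark hindbrain, none had enough counts to be given an adjusted *p*. The part of hypothalamic and striatal RNA in the amygdalar results was not tested, and in bulk tissue fewer cells of a type cannot be told apart from less RNA per cell.

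*Kmt2a* itself had 3328, 5021, 5161 and 6730 normalised counts in HIP and 3343, 4380, 4143 and 4218 in AMY. It was higher in HIP in 3 of the 4 mice, about level in replicate 1, and the groups overlapped. The log2 difference of 0.33 (SE 0.18) was not called (adjusted *p* = 0.177), whereas with mouse as a block it was (adjusted *p* = 0.0361), as it was without HIP replicate 1 (log2 0.49, adjusted *p* = 0.00171). *Kdm5c* had 1650, 1629, 1608 and 1754 in HIP and 1576, 1354, 1550 and 1451 in AMY, and its difference of 0.16 (SE 0.08) was not called (adjusted *p* = 0.123), but was with genes of low count removed first (0.16, adjusted *p* = 0.0869) and with spike-in scaling (0.67, adjusted *p* = 0.0125). Spike-in scaling also called *Kmt2a* (0.86, adjusted *p* = 0.00727). Against WT, *Kmt2a* differed by 0.21 in HIP and 0.09 in AMY on the log2 scale (exact permutation test over 4 and 4 libraries, two-sided *p* = 0.486 and 0.886, smallest possible 0.0286). Because only some exons are deleted and the count covers the whole gene, it does not check the allele.

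Of 19971 genes with an adjusted *p*, 6720 (33.6%) were called. With mouse as a block 6459 were, 5962 of them among the 6720. The calls were evenly divided, with 3383 genes (16.9%) higher in the hippocampus and 3337 (16.7%) higher in the amygdala. In 6434 of the called genes all 4 mice moved in the called direction. In 5378 the 4 HIP and 4 AMY values did not overlap. Both counts are over genes called from these same values, so such agreement is partly built in by the selection. Over all tested genes 29.4% did not overlap, and the share with all 4 mice in the same direction was not counted. Larger differences lay more often on the amygdalar side. Fitted differences of at least 2-fold were called for 931 genes higher in the hippocampus (4.66% of those tested) and 1246 higher in the amygdala (6.24%). Fitted values of genes with no count in 1 region, 14 and 45 of those called, are no bounds, so larger differences were counted from the group means with a floor of 3 normalised counts. By this measure 59 and 154 called genes differed at least 8-fold and 4 and 38 at least 32-fold. Of protein-coding genes 38.6% were called (5587 of 14469), of long intergenic RNAs 21.1% (166 of 788) and of processed pseudogenes 6.86% (31 of 452). Scaling by the spike-in RNA instead moved the median of all genes from 0.0043 to 0.51, so that 89.9% of calls lay on the hippocampal side. The differences are therefore given relative to the bulk of genes in each library, and with spike-in scaling 1201 of the 3337 genes higher in AMY (36%) lay above 0, none of them below -0.54 in the present scaling. Among the called genes named below these are *Calb1*, *Dlx1*, *Olig1*, *Pdgfra*, *Gpr17*, *Itm2a* and *Hcn2*, whose direction thus depends on the scaling, as does that of *Lypd1*.

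**Figure D1:**
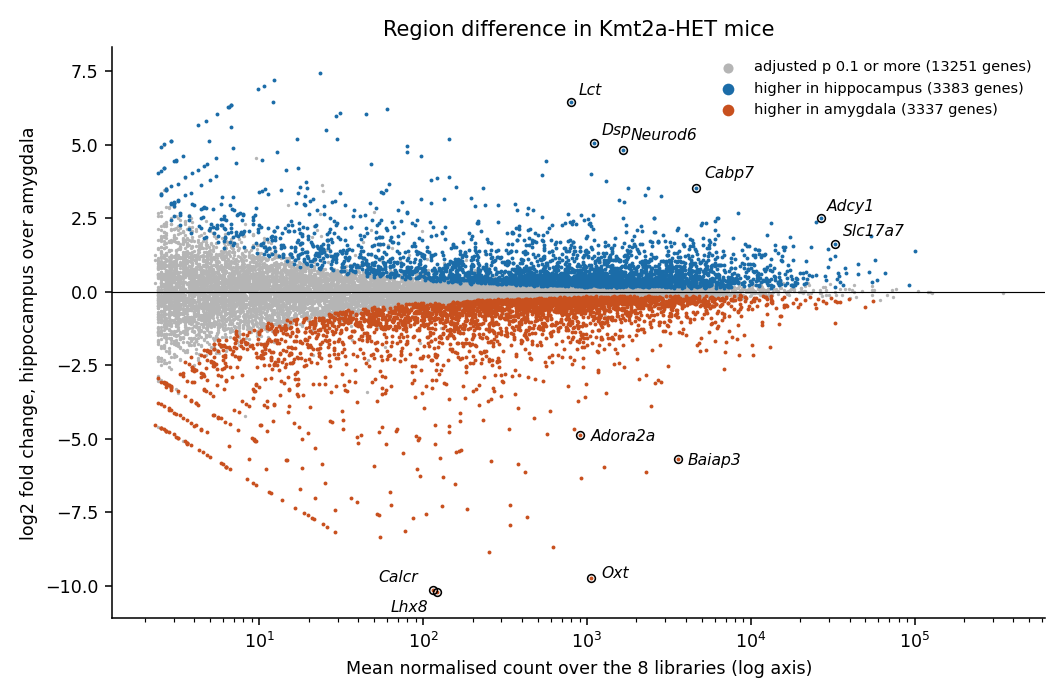
Each point is 1 of 19971 tested genes, plotted by its mean normalised count over the 8 libraries (log axis) against its log2 fold change of hippocampus over amygdala; blue genes were called higher in the hippocampus, orange genes higher in the amygdala and grey genes were not called. The called genes divide evenly (3383 and 3337). Among genes with a mean of at least 100, *Calcr* and *Lhx8* lie below -10 on the amygdalar side and *Lct* at 6.44 on the hippocampal side. *Calcr* and *Lhx8* had no count in the hippocampus, so their fitted values are no bounds and are not comparable with that of *Lct*.

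The hippocampal genes with the smallest adjusted *p* were led by *Cabp7*, a neuronal calcium-binding protein. It had 9302, 6894, 8240 and 9739 in HIP and 735, 749, 766 and 714 in AMY. All HIP values lay far above all AMY values, a 11.5-fold difference of means (log2 3.53, SE 0.12, adjusted *p* = 8.05e-199). *Neurod6*, a proneural transcription factor kept on in pyramidal neurons, had 3447, 2817, 3542 and 2979 in HIP and 96.5, 114, 84.9 and 159.5 in AMY. It differed 28.1-fold (log2 4.82, SE 0.17, adjusted *p* = 2.62e-166), and AMY replicate 4 was the highest of the low group. Its relative *Neurod2* had 5705, 4331, 4161 and 6168 and 472, 572, 489 and 625 and differed 9.44-fold (log2 3.24, SE 0.15, adjusted *p* = 4.77e-96). *Zbtb18*, a zinc-finger repressor of cortical development, had 9817, 10282, 9722 and 12890 in HIP against 1721, 1971, 1763 and 2127 (log2 2.49, SE 0.12, adjusted *p* = 1.47e-95).

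To show the stretch of genome in front of the genes that lead each side, the 250 bases before the RefSeq gene start (GRCm38.p6) are given for *Cabp7* (chr11:4747180-4747429, minus strand) and *Neurod6* (chr6:55681264-55681513, minus strand) on the hippocampal side, and for *Baiap3* (chr17:25256365-25256614, minus strand) and *Oxt* (chr2:130575919-130576168, plus strand) on the amygdalar side. They read 5′ to 3′, and capitals mark CpG dinucleotides, the target of the CXXC domain of KMT2A.
Cabp7: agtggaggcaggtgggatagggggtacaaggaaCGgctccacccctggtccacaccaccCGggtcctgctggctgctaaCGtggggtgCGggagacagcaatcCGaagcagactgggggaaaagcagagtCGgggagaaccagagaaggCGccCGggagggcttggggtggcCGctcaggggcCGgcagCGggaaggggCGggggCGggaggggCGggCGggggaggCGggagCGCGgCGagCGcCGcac
Neurod6: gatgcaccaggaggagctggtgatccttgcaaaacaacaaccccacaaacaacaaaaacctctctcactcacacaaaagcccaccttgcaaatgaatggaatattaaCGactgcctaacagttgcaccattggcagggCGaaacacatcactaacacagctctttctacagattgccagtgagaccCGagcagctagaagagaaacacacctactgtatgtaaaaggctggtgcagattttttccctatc
Baiap3: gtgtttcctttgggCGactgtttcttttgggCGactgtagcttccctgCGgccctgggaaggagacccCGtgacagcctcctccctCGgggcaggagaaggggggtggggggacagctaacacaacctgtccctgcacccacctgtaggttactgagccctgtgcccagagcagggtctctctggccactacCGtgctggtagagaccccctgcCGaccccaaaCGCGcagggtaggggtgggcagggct
Oxt: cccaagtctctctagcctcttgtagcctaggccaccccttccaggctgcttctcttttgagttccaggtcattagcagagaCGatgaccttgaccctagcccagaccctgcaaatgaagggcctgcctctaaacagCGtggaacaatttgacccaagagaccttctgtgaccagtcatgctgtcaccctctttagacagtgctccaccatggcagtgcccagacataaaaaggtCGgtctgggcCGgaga
The *Cabp7* stretch holds 21 CpG dinucleotides and the *Neurod6* stretch 3, whereas those of *Baiap3* and *Oxt* hold 9 and 4. An entry was found for 15 of the 19 leading hippocampal genes and for 17 of the 20 leading amygdalar genes. The median was 17 CpG over those hippocampal promoters, 13 over the amygdalar ones and 6 over all 32851 promoters. The E-box CAGATG, a sequence that NEUROD factors bind, was searched on both strands (its reverse is CATCTG) and lies in 5 of the 15 hippocampal stretches (33.3%), among them that of *Neurod2*, in 3 of the 17 amygdalar ones (17.6%) and in 14.4% of all promoters. The sets are small and were chosen by their expression, so these counts are a description only.

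Receptors, a scaffold and secreted proteins were among the other leading hippocampal genes. *Nr3c2*, the mineralocorticoid receptor, had 3789, 4235, 4199 and 5292 in HIP and 689, 845, 817 and 745 in AMY, a 5.66-fold difference (log2 2.5, SE 0.12, adjusted *p* = 1.42e-90). *Adra1d*, an alpha-1 adrenergic receptor, had 1700, 1641, 2445 and 2154 and 89.1, 108, 125 and 174 and differed 16-fold (log2 4.0, SE 0.2, adjusted *p* = 4.61e-85). *Fibcd1*, a membrane protein that binds acetylated sugars and marks dorsal CA1, had 3296, 4003, 5093 and 5033 and 433, 366, 357 and 338 and differed 11.7-fold. In all 3 the lowest HIP value was several times the highest AMY value. *Dkk3*, a secreted member of the Dickkopf family, differed 5.72-fold (9258 to 11892 against 1692 to 1992), and *Iqgap2*, a scaffold of the actin cytoskeleton, 13.5-fold (2036 to 3358 against 156 to 207). *Olfml2b*, an olfactomedin-like extracellular protein, differed 15.8-fold (718 to 1236 against 59 to 64.8), *Galnt9*, a transferase that starts mucin-type glycans, 2.85-fold (2619 to 3005 against 967 to 1020), and the uncharacterised *Gm2115* 11.4-fold (2734 to 3887 against 273 to 302).

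Among protein-coding genes with a mean of at least 100 in HIP, the largest fold changes belonged to genes with few counts in AMY, and several varied between mice. *Lct*, lactase, which in brain is a marker of dentate granule cells, had 2032, 1218, 566 and 2506 in HIP and 16.4, 20.4, 16 and 20.3 in AMY. The AMY values were close together, while HIP replicate 3 was lowest and replicate 4 highest (log2 6.44, SE 0.49, adjusted *p* = 4.45e-37). *Dsp*, the desmosomal plaque protein desmoplakin, also a granule cell marker, had 2353, 1330, 836 and 4079 and 58.9, 55.7, 82.4 and 58.1, with the same mice lowest and highest (log2 5.07, SE 0.5, adjusted *p* = 1.2e-22). *Il16*, a cytokine precursor with a neuronal form, had 1196, 619, 1179 and 1333 and 54, 35.4, 55.5 and 51.1 (log2 4.46, SE 0.24, adjusted *p* = 1.38e-73). *Spink8*, a serine protease inhibitor found in CA1, had 275, 112, 182 and 175 and 7.36, 5.36, 10.1 and 7.05 (log2 4.62, SE 0.37, adjusted *p* = 6.09e-33). *Slc9a4*, a sodium-proton exchanger, had 219, 116, 519 and 261 and 1.64, 12.9, 4.21 and 12.3, and here replicate 3 was highest (log2 5.18, SE 0.71, adjusted *p* = 8.5e-12). *Sebox*, a homeobox gene, had 154, 143, 134 and 184 and 4.09, 4.29, 5.89 and 5.29, and *Pla2g2f*, a secreted phospholipase, 216, 61.4, 31.1 and 168 and 0.818, 4.29, 0.841 and 0.881. Their log2 differences of 4.97 (SE 0.36) and 6.21 (SE 0.77) rest on few AMY counts, and HIP values of *Pla2g2f* varied more between mice than those of *Sebox*.

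**Figure D2:**
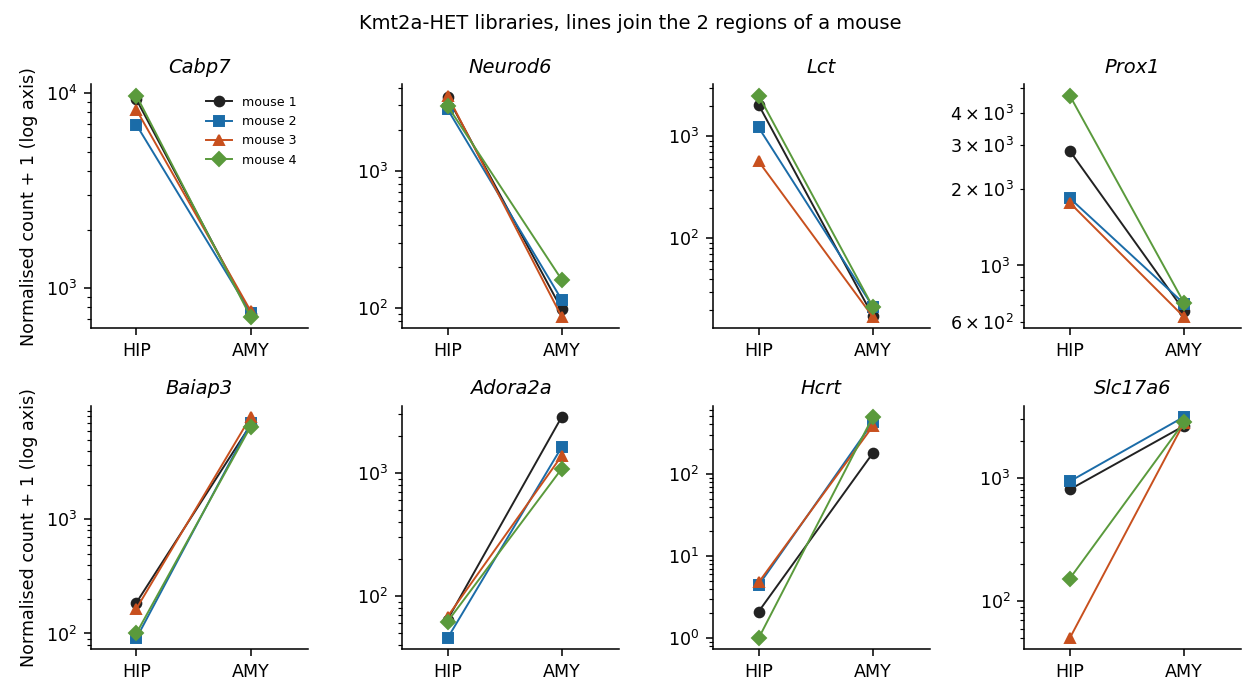
Normalised counts plus 1 (log axis) of 8 genes in the hippocampus (HIP) and amygdala (AMY), with a line and symbol for each of the 4 *Kmt2a*-HET mice. For *Cabp7* and *Neurod6* the mice lie close together in both regions, for *Lct* and *Prox1* they spread in HIP (*Lct* 566 to 2506), for *Adora2a* and *Hcrt* replicate 1 stands apart in AMY, and for *Slc17a6* the HIP values run from 49 to 939.6 while AMY stays at 2655 to 3145.

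On the amygdalar side, the smallest adjusted *p* belonged to *Baiap3*, which serves the recycling of dense-core vesicles. It had 6733, 6948, 7919 and 6510 in AMY and 185, 89.9, 164 and 99.4 in HIP, a 52.2-fold difference (log2 -5.7, SE 0.19, adjusted *p* = 1.44e-187). *Ecel1*, a neuronal endopeptidase-like protein, had 2592, 2343, 2704 and 2329 in AMY and 59.9, 14.8, 46.2 and 39.8 in HIP and differed 62-fold (log2 -5.95, SE 0.22, adjusted *p* = 1.18e-152). The AMY values of both genes were close together, while in HIP replicate 1 was highest and replicate 2 lowest. *Slc6a11*, the GABA transporter GAT3 of astrocytes, had 15711, 15692, 16323 and 15667 in AMY and 4856, 4111, 4930 and 4032 in HIP (log2 -1.82, SE 0.09, adjusted *p* = 9.73e-92). *Itih3*, which binds hyaluronan and is expressed by astrocytes, had 4191, 4741, 5060 and 4654 and 555, 648, 517 and 441 (log2 -3.11, SE 0.12, adjusted *p* = 1.55e-140). An imprinted gene and X-linked genes also ranked here. *Peg10*, derived from a retrotransposon and expressed from the paternal copy, differed 11-fold (2033 to 2713 against 190.1 to 281), and *Arhgap36*, an X-linked inhibitor of protein kinase A, 57.9-fold (649.9 to 817 against 4.55 to 17.4). *Dgkk*, an X-linked diacylglycerol kinase, differed 53.7-fold (483 to 533 against 4.55 to 14.4), *Vat1*, a vesicle membrane protein, 5.71-fold (4957 to 5705 against 824 to 1059), and *Rcan3*, a calcineurin regulator, 2.94-fold (1653 to 1740 against 538 to 602). *Tmem130* and *Tmem132e*, membrane proteins, differed 4.15-fold and 3.82-fold.

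By the same measure in AMY, the largest fold changes belonged to genes at or near 0 counts in the hippocampus, and most encode factors or peptides that define subpallial or hypothalamic neurons. *Lhx8*, a LIM homeobox factor of forebrain cholinergic neurons, had 327, 195, 211 and 237 in AMY and no count in any HIP library. Against a floor of 3 counts per library it was at least 80.8-fold higher in AMY. *Calcr*, the calcitonin receptor, had 204, 235, 239.7 and 237 in AMY and no count in HIP, at least 76.3-fold higher. *Oxt*, the oxytocin precursor, had 2687, 1975, 2225 and 1615 in AMY and 4.44, 0, 1.89 and 3.73 in HIP (log2 -9.75, SE 0.51, adjusted *p* = 1.27e-78). *Otp* and *Sim1*, homeobox and bHLH-PAS factors of oxytocin and vasopressin neurons and of the medial amygdala, had 465, 535, 567 and 449 and 98.1, 117, 117 and 100.4 in AMY. In HIP *Otp* stayed at or below 2.48 and *Sim1* had a count in 1 library only. *Irs4*, an insulin receptor substrate, had 1035, 1317, 1441 and 1171 in AMY and 3.33, 0, 6.6 and 1.24 in HIP. *Gabrq*, the theta subunit of GABA-A receptors, had 583, 699.9, 784 and 625 and 4.44, 0, 3.77 and 2.48, and *Gbx1*, a homeobox gene, 189, 132, 137 and 159 and 0, 0, 0.943 and 1.24. The AMY values of these genes varied less than 2-fold between mice.

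Of 185 genes named with values from the region comparison, 68 overlap a gene model on the other strand. Their reads cannot be told apart with certainty, since the libraries were directional but whether counting used the strand is not given in the sources used here. Among the leading genes, the models show that *Cabp7* overlaps *Zmat5* on the other strand, *Vat1* overlaps *Rnd2*, *Baiap3* overlaps *Tsr3* and *Il16* overlaps *Stard5*.

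Markers of the principal cells of the hippocampus were compared next. Of 15 tested dentate granule genes, 12 were higher in HIP and 1 in AMY (16.9% and 16.7% of all tested genes), with a median log2 difference of 1.67, beside 0.0043 over all tested genes. The same shares and median of all tested genes stand behind the counts of every list that follows. *Prox1*, the homeobox factor that keeps granule cell identity, had 2832, 1843, 1767 and 4683 in HIP and 663, 706, 626 and 712 in AMY (log2 2.04, SE 0.34, adjusted *p* = 2.05e-08). *C1ql2*, a synaptic organiser of mossy fibres, had 2351, 1289, 1198 and 2216 and 487, 373, 431 and 327 (log2 2.12, SE 0.23, adjusted *p* = 1.94e-19). The exception was *Calb1*, calbindin, which granule cells share with many amygdalar neurons, at 2442, 1491, 1672 and 2484 in HIP and 2855, 2966, 2765 and 2531 in AMY (log2 -0.46, SE 0.17, adjusted *p* = 0.0225). It was not called without the mouse of replicate 2 (-0.31, adjusted *p* = 0.205) or of replicate 3 (-0.38, adjusted *p* = 0.162). The summed level of the granule list was 27560, 18670, 16700 and 39230 in HIP, so that replicate 4 held more than 2 times the level of replicate 3, and 10770 to 11360 in AMY.

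Of 8 tested CA1 genes, 7 were higher in HIP and none in AMY (median 1.6). *Lefty1*, an antagonist of Nodal signalling, had 247, 246, 135 and 274 and 16.4, 16.1, 20.2 and 9.69 (log2 3.85, SE 0.3), and *Wfs1*, wolframin of the endoplasmic reticulum, which is also abundant in the central amygdala, had 4778, 6429, 2174 and 7915 and 4083, 3992, 4287 and 4154, with overlap, and was not called (adjusted *p* = 0.535), but was without HIP replicate 3 (log2 0.63, adjusted *p* = 0.000294). Of 11 tested CA3 genes, 9 were higher in HIP and 1 in AMY (median 0.99). *Iyd*, an iodotyrosine deiodinase used as a CA3 marker, had 51, 38.7, 53.8 and 53.4 in HIP and 1.64, 8.57, 3.36 and 10.6 in AMY (log2 3.06, SE 0.46, adjusted *p* = 5.49e-10), and *Coch*, cochlin, went the other way (-2.48, SE 0.35). The summed CA3 level was highest in HIP replicate 3 (13040, 10280, 18950 and 13230), the library in which the granule list was lowest. CA2 genes were called in both directions, 1 of 5 tested higher in HIP and 2 in AMY (median -0.4), while their summed level was 3731, 2902, 3482 and 3849 in HIP and 2400, 2520, 2430 and 2628 in AMY, without overlap. *Rgs14*, which limits plasticity in CA2, was higher in HIP (log2 1.34, SE 0.11), and *Cacng5*, an AMPA receptor auxiliary subunit, was higher in AMY (-1.25, SE 0.16). *Map3k15*, a kinase at 32.3 to 51 in HIP and 51.1 to 74.8 in AMY (adjusted *p* = 0.0717), was not called with mouse as a block (adjusted *p* = 0.151) or when AMY replicate 1, 2 or 3 or HIP replicate 2 or 4 was left out (0.151 to 0.256).

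Amygdalar nuclei were unequally represented. Of 15 tested genes of the central amygdala, 11 were higher in AMY and 1 in HIP (median -2.44). *Isl1*, a LIM homeobox factor, had 215, 181, 188 and 170 in AMY and 7.77, 1.14, 0.943 and 0 in HIP (log2 -6.26, SE 0.52, adjusted *p* = 1.15e-31). *Cartpt*, the CART peptide precursor, had 464, 383, 498 and 411 and 17.8, 20.5, 30.2 and 16.1 (log2 -4.35, SE 0.22, adjusted *p* = 1.1e-82). *Prkcd*, protein kinase C delta, the best known marker of a class of central amygdala neurons, had 1023, 2537, 1304 and 2598 in AMY and 1998, 493, 486 and 896 in HIP. Its groups overlapped, HIP replicate 1 being above 2 AMY libraries, and it was not called (log2 -0.95, SE 0.58, adjusted *p* = 0.236). Without HIP replicate 1 it was called, with a log2 difference of -1.58 (adjusted *p* = 0.00309), and in edgeR with mouse as a block at -1.13 (adjusted *p* = 0.0898). It is also a marker of thalamus, a list whose summed level was 4837, 2656, 1327 and 2092 in HIP, with replicate 1 highest, and 5927, 8712, 6442 and 8575 in AMY. A list's sum includes the counts of its own members, so it is no separate measure of a marker it holds. Of 10 tested medial amygdala genes, 8 were higher in AMY and none in HIP (median -3.86, or -1.99 with the gene absent from HIP set at its bound). *Esr1*, the estrogen receptor alpha, had 123, 175, 209 and 129 and 36.6, 22.8, 53.8 and 19.9 (log2 -2.24, SE 0.32, adjusted *p* = 3.97e-11), and *Lhx5*, a LIM homeobox factor, 135, 150.1, 174 and 132 and 4.44, 3.41, 0 and 6.21 (log2 -5.48, SE 0.46, adjusted *p* = 3.62e-30). *Otp*, *Sim1* and *Esr1* mark hypothalamic neurons as well. All 4 tested genes of the intercalated cells, islands of GABA neurons, were higher in AMY, among them *Oprm1*, the mu opioid receptor (54, 122, 112 and 114 against 5.55, 28.4, 31.1 and 24.8). Of 6 tested basolateral genes 3 were higher in AMY and 2 in HIP. *Nr2f2*, the orphan nuclear receptor COUP-TFII, had 1263, 1564, 1513 and 1476 in AMY and 307, 171, 879 and 236 in HIP, where replicate 3 was highest (log2 -1.87, SE 0.53, adjusted *p* = 0.00228). *Tfap2d*, an AP-2 factor at a low level, had 4.09, 6.43, 6.73 and 12.3 in AMY and 0, 0, 0.943 and 0 in HIP (log2 -4.47, SE 1.29, adjusted *p* = 0.0031). *Lypd1*, a modulator of nicotinic receptors, differed by -0.27 (SE 0.11, adjusted *p* = 0.0495), and was not called without AMY replicate 2 or 3 or HIP replicate 2 or 3 (adjusted *p* from 0.148 to 0.204) or in the fit over all 32 libraries (0.509). On the other side, *Rspo2*, an activator of Wnt signalling, had 136, 206, 247 and 152 in HIP and 75.2, 96.5, 53.8 and 88.1 in AMY (log2 1.25, SE 0.25, adjusted *p* = 6.2e-06). *Etv1*, an ETS factor, had 1613, 2853, 2087 and 1303 and 811, 992, 850.2 and 1048 (log2 1.09, SE 0.21, adjusted *p* = 2.38e-06).

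**Figure D3:**
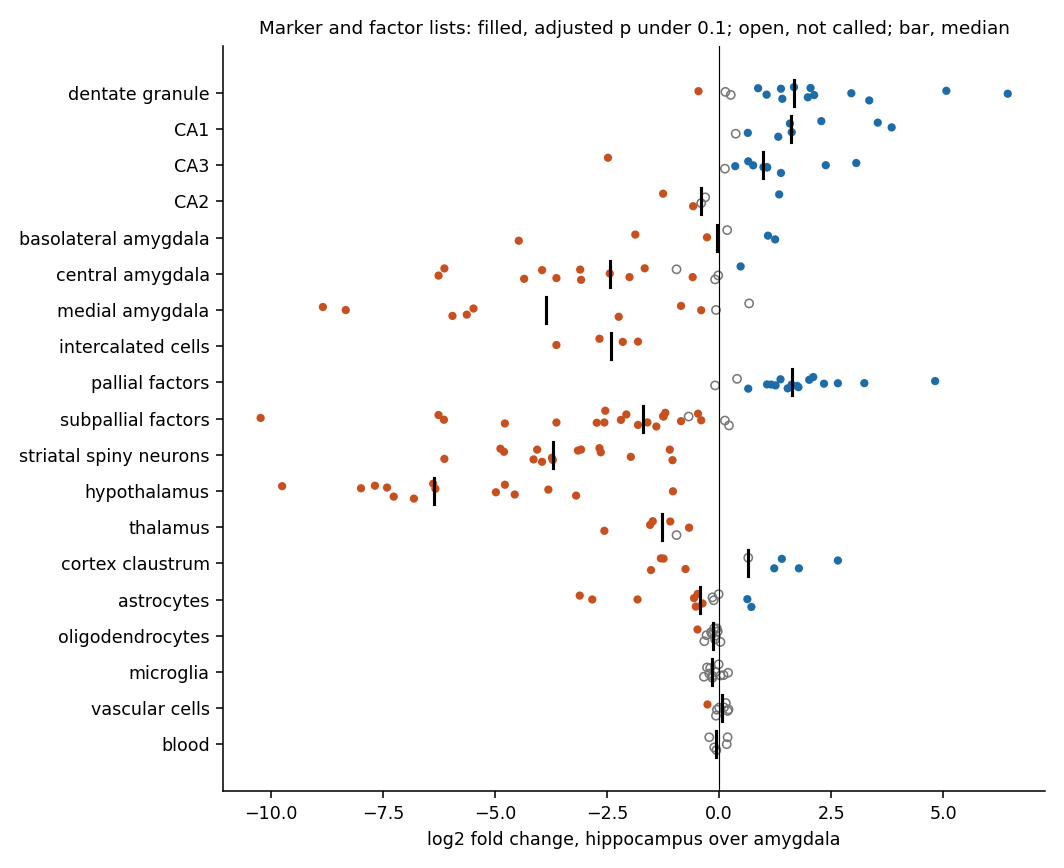
Each row is a gene list and each point a tested member at its log2 fold change of hippocampus over amygdala; filled points were called (blue higher in the hippocampus, orange higher in the amygdala), open points were not, and the bar is the median. Granule, CA1, CA3 and pallial lists lie to the right, central, medial, subpallial, striatal and hypothalamic lists to the left, CA2, basolateral and cortical lists straddle 0, and oligodendrocyte, microglial, vascular and blood genes cluster at 0.

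Transcription factors divided along the border of pallium and subpallium, the embryonic sources of glutamatergic and of most GABA neurons of the forebrain. Of 17 tested pallial factors, 15 were higher in HIP and none in AMY (median 1.62). *Zbtb20*, required for CA1 identity, had 4339, 6535, 8384 and 14536 in HIP and 1121, 1828, 1800 and 1937 in AMY (log2 2.34, SE 0.41, adjusted *p* = 1.23e-07). *Nfix*, a nuclear factor of hippocampal development, had 8057, 9199, 7998 and 9000 and 2453, 2590, 2819 and 2361 (log2 1.74, SE 0.09, adjusted *p* = 2.32e-83). *Emx1* and *Emx2*, homeobox factors that pattern the pallium, differed by 1.37 (SE 0.24) and 1.53 (SE 0.17). *Tbr1* at 0.4 (SE 0.25), which was called without HIP replicate 3 (0.58, adjusted *p* = 0.0341), and *Mef2c* at -0.09 (SE 0.34) were not called. Of 22 tested subpallial factors, 19 were higher in AMY and none in HIP (median -1.71). *Six3*, a homeobox factor of striatal neurons, had 1087, 712, 793 and 695 in AMY and 34.4, 2.27, 3.77 and 6.21 in HIP (log2 -6.14, SE 0.8, adjusted *p* = 5.08e-13). *Zic1*, a zinc-finger factor of septum and basal forebrain, had 2014, 2133, 2124 and 1869 and 682, 212, 152 and 185 (log2 -2.73, SE 0.51, adjusted *p* = 1.07e-06), and *Pbx3*, a TALE homeobox factor, 549, 548, 461 and 437 and 103, 95.5, 83.9 and 53.4 (log2 -2.56, SE 0.19, adjusted *p* = 4.39e-41). Among the called subpallial factors the smallest difference was that of *Dlx1*, which cortical interneurons express too. *Dlx1* differed by -0.4 (SE 0.13), beside -2.19 (SE 0.22) for *Dlx6*.

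The genes of striatal spiny neurons, which send GABA projections and respond to dopamine, were all higher in AMY (15 of 15, median -3.71). *Adora2a*, a receptor for adenosine, had 2865, 1627, 1383 and 1085 in AMY and 63.2, 44.4, 67 and 60.9 in HIP (log2 -4.88, SE 0.27, adjusted *p* = 1.12e-68), and *Ppp1r1b*, the dopamine-regulated phosphatase inhibitor DARPP-32, 19483, 10881, 8537 and 8480 and 2127, 2070, 1605 and 1795 (log2 -2.64, SE 0.33, adjusted *p* = 3.85e-14). In both, AMY replicate 1 was highest. For the 14 hypothalamic genes the median was -6.35, or -4.33 with the 4 genes that had no HIP count set at their bound. Of 9 tested cortical and claustral genes 4 were higher in HIP and 4 in AMY.

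Markers of microglia, oligodendrocytes, vessels and blood were seldom called, beside 33.6% of all tested genes. None of 11 tested microglial genes and none of 5 blood genes was called, and 1 of 12 oligodendrocyte genes, 2 of 5 precursor genes and 1 of 8 vascular genes were, all higher in AMY and by less than 0.5 on the log2 scale. With spike-in scaling, the called *Olig1*, *Gpr17*, *Pdgfra* and *Itm2a* had log2 differences of 0.0, 0.10, 0.11 and 0.22, at or above 0, and *Itm2a* was not called with mouse as a block (adjusted *p* = 0.107, beside 0.0451) or without AMY replicate 1 or 4 or HIP replicate 4 (0.16 to 0.169). The summed oligodendrocyte level was 83090, 76390, 74130 and 41220 in HIP, lowest in replicate 4, and 68850 to 85530 in AMY. Of 12 tested astrocyte genes, 7 were higher in AMY and 2 in HIP. *Agt*, angiotensinogen, had 4000, 4103, 4129 and 3936 in AMY and 908, 366, 613 and 385 in HIP (log2 -2.83, SE 0.24, adjusted *p* = 2.54e-31), a larger difference than that of *Gfap*, the intermediate filament protein, which was higher in HIP (11771, 8590, 7160 and 8845 against 6443, 5634, 5175 and 4807, log2 0.72, SE 0.15). *Slc1a2*, the main glutamate transporter, was higher in HIP (log2 0.63, SE 0.13), and the pan-astrocyte genes *Sox9* (-0.01, SE 0.09) and *Gja1* (-0.15, SE 0.08) were not called. *Gja1* was called without HIP replicate 1 (-0.19, adjusted *p* = 0.056) and in edgeR with mouse as a block (-0.16, adjusted *p* = 0.072). Of 11 choroid plexus genes 1 was higher in HIP and 2 in AMY, of 7 ependymal genes 2 were higher in AMY, and of 8 meningeal genes 1 was higher in HIP and 4 in AMY, beside 16.9% and 16.7% of all tested genes. *Kl*, klotho, which is made by choroid plexus and also by hippocampal neurons, was the one higher in HIP (536, 493, 556 and 635 against 137, 162, 118 and 142), and *Kcnj13* and *Clic6* went the other way.

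Of 17 tested interneuron genes, 7 were higher in AMY, 3 in HIP and 7 were not called. *Gad2*, a GABA-synthesising enzyme, had 6980, 8006, 7122 and 7786 in AMY and 2178, 2216, 2733 and 1804 in HIP (log2 -1.74, SE 0.12, adjusted *p* = 3.87e-42). *Calb2*, calretinin, had 1981 to 2811 in AMY and 173 to 768 in HIP (log2 -2.45, SE 0.52, adjusted *p* = 2.66e-05). *Cck*, cholecystokinin, had the largest difference on the hippocampal side (7705, 6709, 5967 and 6365 against 1953, 2276, 2145 and 2171, log2 1.65, SE 0.1), whereas *Pvalb* (-0.02, SE 0.26), *Npy* (-0.03, SE 0.23) and *Vip* (-0.31, SE 0.26, or -0.54 and called at 0.0961 without HIP replicate 2) were not called. Of 12 general neuronal genes 5 were higher in HIP and 2 in AMY, none by 2-fold.

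Carriers that load transmitter into vesicles mark the kind of neuron. *Slc17a7*, the vesicular glutamate transporter VGLUT1 of cortical neurons, had 45032, 42024, 57685 and 52384 in HIP and 11249, 16762, 16207 and 19742 in AMY (log2 1.62, SE 0.17, adjusted *p* = 4.3e-21). *Slc17a6*, VGLUT2 of subcortical neurons, had 2655, 3145, 2813 and 2851 in AMY and 808, 939.6, 49 and 152 in HIP, where replicates 1 and 2 were many times replicate 3. Its difference (log2 -2.56, SE 0.83, adjusted *p* = 0.0103) was not called without the mouse of replicate 4 (log2 -2.26, adjusted *p* = 0.111), and without HIP replicate 1 or 2 DESeq2 gave no adjusted *p*. *Slc32a1*, the vesicular GABA transporter, had 8362, 6896, 6886 and 6929 in AMY and 2006, 2438, 2422 and 1458 in HIP (log2 -1.8, SE 0.16, adjusted *p* = 1.4e-28). *Slc18a3*, the acetylcholine carrier, had 354, 262, 196 and 228 and 7.77, 1.14, 1.89 and 2.48 (log2 -6.3, SE 0.48, adjusted *p* = 3.33e-37), and like *Lhx8* it marks cholinergic neurons.

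Of 24 tested glutamate receptor genes, 11 were higher in HIP and 7 in AMY. The NMDA receptor subunits divided: *Grin2a* had 6715, 9309, 9390 and 15017 in HIP and 1541, 1999, 1917 and 2102 in AMY (log2 2.42, SE 0.21, adjusted *p* = 6.64e-30) and *Grin2b* differed by 1.44 (SE 0.24), while *Grin2d* had 2084, 1980, 2123 and 1865 in AMY and 662, 659, 779 and 571 in HIP (log2 -1.59, SE 0.11, adjusted *p* = 5.83e-47) and *Grin3a* differed by -1.04 (SE 0.2). The AMPA subunits *Gria1* (1.22, SE 0.13), *Gria2* (1.26, SE 0.16) and *Gria3* (0.81, SE 0.14) were higher in HIP and *Gria4* (-0.86, SE 0.15) in AMY. Of the kainate subunits, *Grik4*, which sits at mossy fibre synapses, was higher in HIP (1.38, SE 0.19), as was *Grik5* (0.37, SE 0.1), *Grik3* (-0.99, SE 0.2) and *Grik1* (-1.07, SE 0.22) were higher in AMY, and *Grik2* (0.22, SE 0.13) was not called, but was without HIP replicate 2 (0.33, adjusted *p* = 0.0073) and with spike-in scaling (0.71, adjusted *p* = 0.0111). With spike-in scaling *Gria4* (-0.36, adjusted *p* = 0.229), *Grik3* (-0.47, 0.209) and *Grik1* (-0.56, 0.102) were not called.

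Of 20 tested GABA and glycine receptor genes, 9 were higher in AMY and 4 in HIP. *Gabra5*, the alpha-5 subunit of extrasynaptic receptors in pyramidal cells, had 3491, 3063, 3587 and 3991 in HIP and 619.7, 832, 824 and 736 in AMY (log2 2.23, SE 0.12, adjusted *p* = 2.84e-71). *Gabra3* had 1974, 2390, 2464 and 2600 in AMY and 753, 987, 895 and 524 in HIP (log2 -1.58, SE 0.18, adjusted *p* = 2.42e-17). *Gabre*, the epsilon subunit, had 304, 328, 336 and 269.6 and 0, 1.14, 10.4 and 1.24 (log2 -6.53, SE 0.77, adjusted *p* = 7.62e-16), which with *Gabrq* and *Gabra3* makes 3 neighbouring X-linked subunit genes. The glycine receptor subunits *Glra1* (-5.16, SE 0.55), *Glra2* (-2.27, SE 0.15) and *Glra3* (-2.85, SE 0.24) were higher in AMY.

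Neuropeptide precursors lay mostly on the amygdalar side. Of 25 tested precursors, 17 were higher in AMY and 3 in HIP, beside 16.7% and 16.9% of all tested genes (median -1.66). *Penk*, proenkephalin, had 7573, 4784, 4051 and 3914 in AMY and 664, 677, 427 and 637 in HIP (log2 -3.08, SE 0.22, adjusted *p* = 4.48e-44). *Tac1*, the substance P precursor, had 967, 559.5, 700.5 and 626 and 52.1, 37.5, 64.1 and 28.6 (log2 -3.95, SE 0.24, adjusted *p* = 2.28e-56). *Trh*, the thyrotropin-releasing hormone precursor, had 587, 667, 781 and 645 and 6.66, 2.27, 4.71 and 3.73 (log2 -7.26, SE 0.39, adjusted *p* = 6.04e-76), and *Avp*, vasopressin, 2336, 1572, 2083 and 1292 and 12.2, 2.27, 0.943 and 75.8 (log2 -6.33, SE 1.13, adjusted *p* = 2.69e-07). *Ucn3*, urocortin 3, a ligand of the CRF receptor CRHR2, had 54, 46.1, 44.6 and 28.2 in AMY and no count in HIP, at least 14.4-fold higher. Several of these peptides are also in the hypothalamic or striatal lists. Their own counts enter the summed levels of those lists, so the sums are not separate from the peptides.

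Of 33 tested neuropeptide receptors, 19 were higher in AMY and 7 in HIP. *Oprk1*, the kappa opioid receptor, had 302, 336, 319.6 and 322 in AMY and 5.55, 13.7, 29.2 and 11.2 in HIP (log2 -4.38, SE 0.29, adjusted *p* = 1.57e-49). *Tacr1*, the substance P receptor, had 369.5, 366, 386 and 338 and 38.8, 37.5, 46.2 and 17.4 (log2 -3.36, SE 0.21, adjusted *p* = 7.55e-58). *Mc3r*, a melanocortin receptor, had 64.6, 60.02, 47.9 and 59 in AMY and no count in HIP, at least 19.3-fold higher. On the hippocampal side, *Sstr4*, a somatostatin receptor, had 396, 788, 649 and 766 in HIP and 77.7, 85.8, 107 and 111 in AMY (log2 2.77, SE 0.22, adjusted *p* = 2.89e-33), and *Npy2r*, a receptor for neuropeptide Y, 774, 585, 1281 and 1185 and 313, 326, 355 and 374 (log2 1.48, SE 0.22, adjusted *p* = 3.43e-10).

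Of 34 tested receptors for monoamines and acetylcholine, 16 were higher in AMY and 9 in HIP. The dopamine receptors divided: *Drd5* was higher in HIP (302, 265, 286 and 362 against 89.1, 86.8, 96.7 and 73.1, log2 1.81, SE 0.16), and *Drd1* (942, 581, 515 and 478 against 95.4, 107, 50.9 and 144, log2 -2.67, SE 0.29) and *Drd2* (1906, 1031, 796 and 762 against 92.1, 43.2, 77.3 and 57.1, log2 -4.06, SE 0.4) in AMY, as was *Drd3* (log2 -5.97, SE 1.25). Of the muscarinic receptors, *Chrm1* (1.54, SE 0.11) and *Chrm3* (1.46, SE 0.16) were higher in HIP and *Chrm2* (-1.34, SE 0.28) in AMY. *Chrm5* (-0.89, SE 0.37, adjusted *p* = 0.0529) was called in AMY but not when AMY replicate 1, 2 or 3 or HIP replicate 1, 2 or 4 was left out (adjusted *p* from 0.107 to 0.17). Of 10 serotonin receptors 3 were higher in HIP and 5 in AMY. *Htr1a* (1.0, SE 0.13) and *Htr5b* (2.15, SE 0.28) were higher in HIP and *Htr2c* (-1.8, SE 0.54) and *Htr1d* (-5.92, SE 0.66) in AMY.

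Ion channels were called in both directions. Of 34 tested voltage-gated potassium channel genes, 16 were higher in HIP and 7 in AMY. *Kcng2*, a silent subunit that modifies Kv2 channels, had 854, 587, 1035 and 1163 in HIP and 132, 159, 182 and 145 in AMY (log2 2.56, SE 0.2, adjusted *p* = 9.34e-34), and *Kcna5*, a delayed rectifier, 424, 352, 355 and 386 in AMY and 39.9, 47.8, 17 and 52.2 in HIP (log2 -3.29, SE 0.25, adjusted *p* = 8.41e-39). *Kcnq3* (0.97, SE 0.18) and *Kcnq5* (1.06, SE 0.24), which contribute to the neuronal M current, were higher in HIP. Of 21 sodium, calcium and HCN channel genes, 9 were higher in HIP and 6 in AMY. The pacemaker subunit *Hcn4* (590.3, 696, 690.4 and 701 against 113, 56.9, 38.7 and 32.3, log2 -3.47, SE 0.29) was higher in AMY, as were *Hcn3* (-1.29, SE 0.14) and *Hcn2* (-0.27, SE 0.09). *Hcn2* was not called without the mouse of replicate 3 (-0.21, adjusted *p* = 0.177) or of replicate 4 (-0.27, 0.11).

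Of 28 tested genes of cyclic nucleotide and G-protein signalling, 16 were higher in AMY and 8 in HIP. *Adcy1*, the calmodulin-stimulated adenylyl cyclase, had 39051, 48408, 22207 and 71853 in HIP and 5783, 8620, 7855 and 9933 in AMY (log2 2.5, SE 0.36, adjusted *p* = 1.45e-10). *Rgs9*, which speeds the shut-off of G proteins in striatal neurons, had 2560, 1649, 1527 and 1373 in AMY and 186, 165, 209 and 238 in HIP (log2 -3.15, SE 0.2, adjusted *p* = 2.42e-53).

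Immediate early genes, which neuronal activity induces, were higher in the hippocampus or not called. Of 16 tested, 10 were higher in HIP and none in AMY, beside 16.9% and 16.7% of all tested genes (median 0.92). *Nr4a3*, an orphan nuclear receptor, had 2629, 2169, 3789 and 2665 in HIP and 580.5, 298, 207 and 218 in AMY (log2 3.11, SE 0.39, adjusted *p* = 3.34e-14). *Bdnf*, the neurotrophin, had 919.7, 608, 766 and 998 and 306, 212, 217 and 241 (log2 1.75, SE 0.18, adjusted *p* = 1.21e-20), and *Arc*, which drives AMPA receptor endocytosis, 3877, 2687, 1584 and 2027 and 1541, 630.3, 498 and 549 (log2 1.66, SE 0.47, adjusted *p* = 0.00269). *Fos*, the most used marker of recent activity, had 405, 291, 54.7 and 49.7 in HIP and 366, 218, 89.98 and 116 in AMY. Both regions were highest in replicates 1 and 2, the groups overlapped, and *Fos* was not called (log2 0.02, SE 0.82, adjusted *p* = 0.991).

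Genes of stress hormones and sex steroids were found on both sides. The corticosteroid genes of the list were higher in HIP, with *Nr3c2* as above and *Hsd11b1*, which regenerates active corticosterone, at 846, 793, 393 and 713 in HIP and 184, 205, 193 and 188 in AMY (log2 1.83, SE 0.21, adjusted *p* = 2.25e-16). *Crh*, the corticotropin-releasing hormone precursor, had 131, 80.4, 146 and 112 in AMY and 33.3, 42.1, 17.9 and 24.8 in HIP (log2 -2.0, SE 0.3, adjusted *p* = 7.2e-10), while *Crhr1*, its main receptor, was not called (0.08, SE 0.18). *Esr1* and *Esr2* (15.5, 13.9, 27.8 and 11.4 against 0, 0, 0 and 1.24) were higher in AMY, and *Pgr* was not called. Of the 13 genes tested in this list, 8 were higher in AMY and 3 in HIP.

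Guidance and adhesion genes, which organise connections, were called in both directions in each family. Of 20 tested Eph and ephrin genes 8 were higher in HIP and 6 in AMY, of 29 semaphorins, plexins and neuropilins 9 and 11, of 13 netrin and Slit pathway genes 6 and 4, and of 18 cadherins 5 and 7, beside 16.9% and 16.7% of all tested genes. *Epha7* had 4317, 4090, 2707 and 6382 in HIP and 673, 840.3, 656 and 942 in AMY (log2 2.49, SE 0.22, adjusted *p* = 1.08e-27) and *Epha4* 7444, 7338, 9386 and 11484 and 1570, 1983, 1516 and 1934 (log2 2.35, SE 0.16, adjusted *p* = 8e-47), both receptors for ephrins. Their ligand *Efna5* was higher in AMY (250.2, 319, 335 and 294 against 73.2, 129.7, 86.8 and 50.9, log2 -1.81, SE 0.24). *Robo3*, a Slit receptor family member, was higher in HIP (783, 787, 337 and 1152 against 163, 85.8, 110.2 and 61.7, log2 2.86, SE 0.45), as were the ligands *Slit1* (1.59, SE 0.19) and *Slit3* (1.55, SE 0.18), while *Slit2* (0.52, SE 0.42) was called only with spike-in scaling (0.99, adjusted *p* = 0.00574) among the settings tried. *Sema3e* was higher in HIP (log2 2.29, SE 0.21), while *Plxnd1*, its receptor, was higher in AMY (-1.48, SE 0.21). *Cdh4*, R-cadherin, had 1203, 1310, 1347 and 1338 in AMY and 232, 236, 336 and 299 in HIP (log2 -2.24, SE 0.13, adjusted *p* = 7.56e-62).

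Of 25 tested Wnt pathway genes, 13 were higher in AMY and 7 in HIP. *Lgr6*, a receptor for R-spondins, was higher in HIP (373, 175, 187 and 526 against 73.6, 98.6, 124 and 105, log2 1.65, SE 0.33), and *Fzd5*, a Wnt receptor, in AMY (156, 140.4, 197 and 141 against 34.4, 46.6, 49.98 and 46, log2 -1.84, SE 0.22). Of 13 retinoid genes, 6 were higher in AMY and 2 in HIP. The nuclear receptors divided, *Rara* being higher in HIP (0.97, SE 0.14) and *Rarb* (-2.07, SE 0.25) and *Rxrg* (760.3, 402, 344 and 351 against 27.7, 17.1, 90.5 and 6.21, log2 -3.71, SE 0.77) in AMY, and *Stra6*, the cellular importer of retinol, was higher in HIP (314, 184, 338 and 392 against 97.3, 64.3, 66.4 and 76.7, log2 2.01, SE 0.24).

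Enzymes that write or erase H3K4me, the family of the mutated gene, differed by small amounts. Of 16 tested, 5 were called (31.2%, beside 33.6% of all genes in either direction). All 5 were higher in HIP, beside 16.9% of all genes, none was higher in AMY, and none reached 2-fold. *Kmt2d*, a writer at enhancers, had 5232, 7592, 7652 and 11196 in HIP and 4264, 5916, 6530 and 5585 in AMY (log2 0.51, SE 0.2, adjusted *p* = 0.0464), and its relative *Kmt2c* 1859, 2702, 2610 and 3662 and 1539, 2043, 1902 and 2029 (log2 0.53, SE 0.18, adjusted *p* = 0.0165). In both genes HIP replicate 1 was lowest and replicate 4 highest, and the groups overlapped. *Kmt2e* (0.36, SE 0.14), *Rbbp5*, a core subunit of the writer complexes (0.31, SE 0.1), and the eraser *Kdm5b* (0.3, SE 0.1) were the others. In the fit over all 32 libraries *Kmt2c* (adjusted *p* = 0.121), *Kmt2d* (0.194) and *Kmt2e* (0.111) were not called. *Kmt2d* was also not called without AMY replicate 1 (adjusted *p* = 0.167) or HIP replicate 4 (0.228). *Kmt2e* was also not called without AMY replicate 1 (adjusted *p* = 0.132), AMY replicate 3 (0.121) or HIP replicate 4 (0.13), and *Rbbp5* and *Kdm5b* were not called without the mouse of replicate 4 (adjusted *p* = 0.125 and 0.129).

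Whether the region difference of *Kmt2a*-HET mice differed from that of other genotypes was asked with all 32 libraries. The other mice share no library with the *Kmt2a*-HET mice. Of the 6720 genes called in *Kmt2a*-HET, 98.4% had the same sign for DM mice (6719 genes with an estimate), 98.0% for WT mice and 95.5% for *Kdm5c*-KO mice. The share over all tested genes was not counted. Fitted alone, WT mice gave 3413 called genes, *Kdm5c*-KO mice 4466 and DM mice 6242. Across these genes, which are not independent replicates, Pearson's *r* of the log2 differences was 0.927 with WT, 0.924 with DM and 0.885 with *Kdm5c*-KO. *Kdm5c*-KO replicate 1 had a HIP library with 25650 summed counts of striatal genes, beside 7418 to 11010 in the other HIP libraries. It also had 19200 for choroid plexus and 744 for hypothalamus, beside at most 942 and 140.1 in *Kmt2a*-HET HIP. *Kdm5c*-KO HIP replicate 4 (3705 and 804) and, for choroid plexus, DM HIP replicates 2 and 4 (7622 and 9003) were high as well. Without the mouse of *Kdm5c*-KO replicate 1 the share of equal sign was 96.0% and *r* 0.901. The median size of the difference over the genes called in *Kmt2a*-HET was 0.64 in *Kmt2a*-HET itself, where they were selected, and 0.53 for DM, 0.44 for *Kdm5c*-KO and 0.44 for WT mice. *Neurod6*, for instance, differed by 4.82 in *Kmt2a*-HET and by 4.12 in WT, and *Baiap3* by -5.7 and -5.1. The summed hypothalamic level in AMY was 5947 to 7538 in *Kmt2a*-HET and 2342 to 7269 in WT. In DM it was 2765 to 8909 and in *Kdm5c*-KO 4965 to 8536. The part of the dissection in the sizes was not tested.

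**Figure D4:**
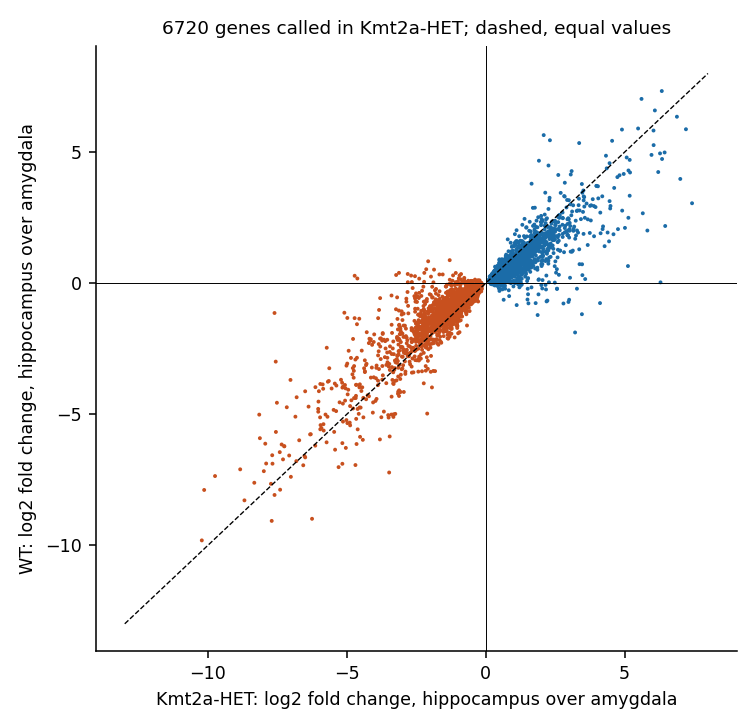
Each point is 1 of the 6720 genes called in *Kmt2a*-HET mice, at its log2 fold change of hippocampus over amygdala in *Kmt2a*-HET (horizontal) and WT (vertical); blue genes were higher in the hippocampus and orange genes in the amygdala of *Kmt2a*-HET, and the dashed line marks equal values. Of the points, 98.0% lie in the lower left or upper right quadrant.

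Against WT, no gene of 32039 tested had a region difference that differed (0.0%) in DESeq2, where 570 had an unadjusted *p* under 0.05, and none in edgeR, where 406 had. Leaving out the WT amygdalar library with the lowest striatal level, a choice made after seeing the data, left 1 gene, *Gm45837*, whose model overlaps *Pde2a* on the same strand. Against *Kdm5c*-KO, 8 genes (0.025%) differed in DESeq2 (1057 at an unadjusted *p* under 0.05) and none in edgeR (861 at that level). The edgeR numbers are over the genes that passed its own count filter, so they do not share the 32039 of DESeq2. Against DM, 5 genes (0.0156%) differed in DESeq2 and 2, *Dnah1* and *Ido2*, in edgeR (505 and 353 at an unadjusted *p* under 0.05). The 5 were also among the 8. No gene was called against either with spike-in scaling. The number against *Kdm5c*-KO depended on single libraries, being 56 without *Kmt2a*-HET HIP replicate 3 and 4 without HIP replicate 4.

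*Dnah1*, an axonemal dynein heavy chain, had 175, 163, 234 and 173 in HIP and 494, 490.1, 689 and 498 in AMY of *Kmt2a*-HET mice on the scale of all 32 libraries. The region difference of -1.54 compares with -1.26 for WT, -0.26 for DM and -0.39 for *Kdm5c*-KO mice. The hippocampal level was 186 ± 32.4 for *Kmt2a*-HET and 180.3 ± 20.5 for WT, but 857 ± 46.4 for DM and 849.9 ± 104 for *Kdm5c*-KO (mean ± SD, n = 4), and the difference of the region effect was -1.14 (SE 0.24, adjusted *p* = 0.0147) against *Kdm5c*-KO and -1.27 against DM (SE 0.24, adjusted *p* = 0.00126). Its antisense neighbour *Gm35823* was called against *Kdm5c*-KO only (-2.44, SE 0.55), and reads of the pair cannot be told apart without strand. *Pnck*, a calcium/calmodulin-dependent kinase on the X chromosome, was higher in AMY than in HIP of *Kmt2a*-HET mice (2434 ± 62.9 against 1258 ± 155) and level in DM (2873 ± 524 against 2974 ± 501). Its region effect differed by -0.96 (SE 0.2, adjusted *p* = 0.0154) against *Kdm5c*-KO and -1.0 against DM (SE 0.2, adjusted *p* = 0.00739). The uncharacterised *6330403K07Rik* differed by -0.85 (SE 0.18) against *Kdm5c*-KO and -0.87 (SE 0.18) against DM. Its call against *Kdm5c*-KO was lost without *Kdm5c*-KO HIP replicate 1 (adjusted *p* = 0.128) or *Kmt2a*-HET HIP replicate 4 (0.152).

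*Ido2*, an enzyme of tryptophan breakdown, did not differ between regions in *Kmt2a*-HET beyond its spread (20.3, 37.2, 31.8 and 24.2 in HIP, 30.02, 35.1, 28.4 and 24.3 in AMY, adjusted *p* = 0.946), and the groups overlapped. In HIP of DM mice it had 219.6, 209, 191 and 174, in AMY 26.6, 31.8, 27.9 and 32.1. WT mice had 31.6 ± 16.3 in HIP and 25.7 ± 7.18 in AMY (mean ± SD). The region effects differed by -2.79 against DM (SE 0.41, adjusted *p* = 2.68e-07) and -1.89 against *Kdm5c*-KO (SE 0.41, adjusted *p* = 0.0222). The call against *Kdm5c*-KO was lost without *Kmt2a*-HET AMY replicate 2 or HIP replicate 1 or 4 (adjusted *p* from 0.121 to 0.146). *Wdr95*, a WD-repeat gene at a low level, had 0, 2.32, 1.93 and 6.37 in HIP and 10.01, 19.7, 11.2 and 9.89 in AMY of *Kmt2a*-HET and differed by -3.54 against *Kdm5c*-KO (SE 0.68) and -2.98 against DM (SE 0.67). With mouse as a block within genotype it was not called against DM (adjusted *p* = 0.294, beside 0.0609), nor without AMY replicate 2 or HIP replicate 1, 2 or 3 of *Kmt2a*-HET (0.35 to 0.783). *Cd44*, a hyaluronan receptor, had 42.2 ± 12.1 in HIP and 94.5 ± 4.36 in AMY of *Kmt2a*-HET. The means stood in the same order in WT (67.0 ± 15.4 and 83.3 ± 11.3) and DM (42.3 ± 9.38 and 68.2 ± 15.0). In *Kdm5c*-KO they stood in the opposite order (96.2 ± 37.2 and 58.6 ± 6.72), a difference of -1.87 (SE 0.36, adjusted *p* = 0.00353). The *Kdm5c*-KO HIP libraries had 121, 44.05, 94.9 and 125 for *Cd44* and summed choroid plexus levels of 19200, 1116, 2928 and 3705. The part of choroid plexus was not tested. *Mc3r* was at 0 in all HIP libraries of *Kmt2a*-HET mice and had 1.17, 0, 3.33 and 0.873 in those of WT mice. In those of *Kdm5c*-KO mice *Mc3r* had 32.5, 0, 7.14 and 3.9, and it was called against them (adjusted *p* = 0.0338). It was not called without the HIP library of *Kdm5c*-KO replicate 1 (adjusted *p* = 0.737) or with mouse as a block (0.269), nor without *Kmt2a*-HET HIP replicate 1, 2 or 4 (0.169 to 0.184). *Gm35823* was not called with the block (0.208) or without *Kmt2a*-HET AMY replicate 3 or HIP replicate 1, 2 or 4 (0.123 to 0.254). Against *Kdm5c*-KO, *Ido2*, *Mc3r* and *Gm35823* rank behind the 5 genes with the smallest adjusted *p* and were chosen for naming after their values were seen.

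**Figure D5:**
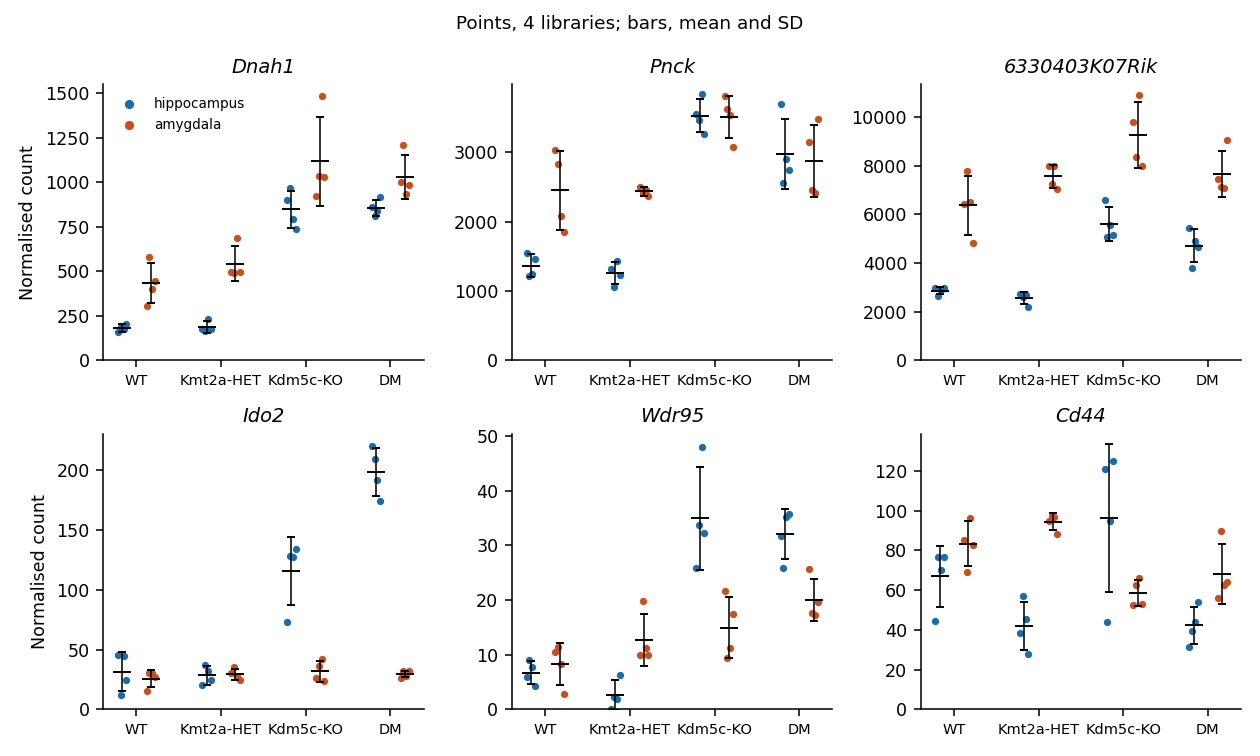
Normalised counts, scaled over 32 libraries, of 6 genes in the hippocampus (blue) and amygdala (orange) of WT, *Kmt2a*-HET, *Kdm5c*-KO and DM mice; points are the 4 libraries of a group and bars their mean and SD. In *Dnah1*, *Pnck* and *6330403K07Rik* the *Kmt2a*-HET mice lie near WT in both regions, and *Ido2* stands out in the hippocampus of *Kdm5c*-KO (116 ± 28.6) and DM (198 ± 20.1).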

How the data were processed

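Poly(A) RNA of microdissected hippocampus and amygdala was sequenced from directional libraries with spike-in RNA. The submitters' processing notes name mm10, STAR 2.5.3a, Subread 1.5.0 with featureCounts and DESeq2 1.14.1. Per the study's methods uniquely mapped reads without duplicates were counted. The deposited values are expected counts per gene made by the authors, and which program made them, and whether counting used strand, is not given in the sources used here. Expected counts that need not be whole are not the usual output of featureCounts, and this difference is unresolved. The values were rounded to whole numbers, spike-in rows were removed, and isoform tables were not used.

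The 8 *Kmt2a*-HET libraries were fitted with DESeq2 1.42.0 (Wald test, region as the only term, Benjamini-Hochberg adjusted *p* under 0.1, automatic count filter). Differences between genotypes were interaction terms over 32 libraries. Alternatives were mouse as a block, edgeR 4.0.16, other scaling or filters, and leaving out libraries or mice, and 2 leave-outs of other genotypes were added after seeing the data. The pipeline was tested on simulated data. Libraries with the same number came from 1 mouse, and their deviations over 16509 genes correlated at 0.15 to 0.498, beside -0.301 to 0.103 between mice.

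Members and gene lists were chosen with earlier results of these data known. Named were *Kmt2a*, *Kdm5c*, per direction 12 protein-coding genes with the smallest adjusted *p* and 8 with the largest difference (mean count at least 100 in the higher region, no overlap), list members, and up to 5 genes per genotype difference. Of 672 genes in 44 lists, 48 were not analysed here, and some genes the rule names are not reported here. The groups are 4 separate animals. Promoters are from RefSeq, GRCm38.p6, with an entry for 32 of 39 leading genes.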

Additional observations from a re-analysis of the deposited data

Results flagged for a closer look

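In 26 of 370 groups of 4 libraries looked at for the named genes, 1 library stood far from the other 3 by Dixon's criterion, which chance alone meets in about 1 in 20 groups of this size. In 8 of the 26 the library was AMY replicate 1, the one with the highest summed level of striatal genes. Its normalised counts were 760.3 for *Rxrg*, 8362 for *Slc32a1* and 1541 for *Arc*, above the other 3, and 204 for *Calcr*, 54 for *Oprm1*, 1121 for *Zbtb20*, 1512 for *Pdgfra* and 590.3 for *Hcn4*, below them.

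AMY replicate 3 was highest for *Dsp* (82.4), *Slc6a11* (16320), *Dnah1* (674.5), *Grik3* (2319) and *Grik5* (7397). AMY replicate 2 stood apart for *Wdr95* (19.3) and *Vip* (154), and AMY replicate 4 for *Dlx1* (729.5).

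In the hippocampus, replicate 1 stood apart for *Peg10* (281), *Six3* (34.4) and *Zic1* (682). Replicate 2 stood apart for *Plxnd1* (1620), replicate 3 for *Penk* (427), *Sox9* (1220) and *Gabre* (10.4), and replicate 4 for *Iqgap2* (3358), *Avp* (75.8) and *Glra2* (60.9).

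The region difference of *Kmt2a*-HET mice differed, by the interaction term of DESeq2, from that of *Kdm5c*-KO mice for *Wdr95* (-3.54), *Cd44* (-1.87), *Dnah1* (-1.14), *Pnck* (-0.96), *6330403K07Rik* (-0.85), *Ido2* (-1.89), *Mc3r* (-6.13) and *Gm35823* (-2.44), on the log2 scale. *Mc3r* had no count in the hippocampus of *Kmt2a*-HET mice, so its fitted value is no bound. Against DM mice it differed for *Ido2* (-2.79), *Dnah1* (-1.27), *Pnck* (-1.0), *6330403K07Rik* (-0.87) and *Wdr95* (-2.98).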

How the results depend on the processing

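The 6720 called genes became between 4576 and 7046 when 1 library or 1 mouse was left out, with 2299 to 3558 higher in the hippocampus and 2277 to 3488 higher in the amygdala. With spike-in scaling 7768 genes were higher in the hippocampus and 873 in the amygdala, and *Calb1* (0.04), *Dlx1* (0.08), *Olig1* (0.0), *Pdgfra* (0.11), *Gpr17* (0.10), *Sox9* (0.49, called only there), *Itm2a* (0.22), *Lypd1* (0.24) and *Hcn2* (0.24) changed sign; the cause was not tested. With the mouse as a block, that is with the libraries paired, 6459 genes were called, 5962 of them among the 6720 and none with the opposite sign. The block ended the calls of *Map3k15* (-0.59) and *Itm2a* (-0.26), added that of *Kmt2a* (0.30) and changed no other call of a named gene in the region comparison by DESeq2, and edgeR with the block added those of *Kmt2a* (0.29), *Prkcd* (-1.13) and *Gja1* (-0.16) and ended none. The fit over all 32 libraries also ended the calls of *Chrm5*, *Kcnj13* and *Map3k15*, leaving out 1 mouse those of *Wdr95* and *Pdgfra*, and spike-in scaling those of *Wdr95* (-1.77), *Cd44* (-0.66), *Map3k15* (-0.08), *Chrm2* (-0.82) and *Chrm5* (-0.44), while it added those of *Tbr1* (0.93) and *Crhr1* (0.59). Differences from other genotypes depended on the setting. Against *Kdm5c*-KO, 8 genes became 14 with 2 genotypes only, 0 with spike-in scaling, 0 in edgeR, 12 with the block and 4 to 56 when 1 library was left out. Against DM, 5 became 19, 0, 2, 7 and 4 to 7. Against WT, 0 became 1 only in the setting added after seeing the data, without WT amygdala replicate 1. 73 of 3506 values for 185 named genes lost a call and 23 gained one. Depth limits genes near 0 counts in a region, whose fitted differences depend on few reads.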

Other observations

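Imprinted genes, expressed from 1 parental copy, were looked at because *Peg10* ranked among the leading amygdalar genes. The list was written after these values were seen, so it is a description with no test. Of 47 genes listed, 40 were tested, and 24 of them were higher in AMY (60.0%, beside 16.7% of all genes), 14 by at least 2-fold, while 1 was higher in HIP and 15 were not called (median log2 difference -0.60). *Magel2*, a paternally expressed gene of the Prader-Willi region, had 591, 652, 671 and 672 in AMY and 15.5, 18.2, 49 and 16.1 in HIP (log2 -4.67, SE 0.27, DESeq2 adjusted *p* = 1.73e-62). *Ndn*, necdin, from the same region, had 11712, 10860, 11881 and 10787 and 3926, 3504, 4942 and 3350 (log2 -1.52, SE 0.12, adjusted *p* = 2.96e-32). *Asb4*, a subunit of ubiquitin ligases, had 166, 165, 210.2 and 183 and 6.66, 4.55, 6.6 and 3.73 (log2 -5.05, SE 0.37, adjusted *p* = 1.86e-40), and *Grb10*, an adaptor of insulin signalling, 1745, 1866, 2033 and 1711 and 455, 526, 440.4 and 388 (log2 -2.02, SE 0.11, adjusted *p* = 2.3e-69). The models of *Magel2* and *Ndn* overlap *Gm32061* on the other strand, so their reads cannot be told apart from its reads without strand. In all 4 genes every AMY value was above every HIP value. *Rasgrf1*, a Ras exchange factor, was the gene higher in HIP, at 13263, 15393, 14689 and 19196 against 8650, 9361, 9173 and 9383 (log2 0.77, SE 0.11, adjusted *p* = 3.03e-10). Several of these genes are prominent in hypothalamus, whose markers were higher in the same libraries, and the part of that tissue was not tested.

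The X chromosome was singled out from 20 chromosomes after their values were seen, as the one with the largest share of genes at least 2-fold higher in AMY, and the shares are a description with no test. Of 624 tested genes of chromosome X, 70 were at least 2-fold higher in AMY (11.2%, beside 6.24% of all genes) and 17 at least 2-fold higher in HIP (2.72%, beside 4.66%). Chromosome 14 came next with 8.22%. Those higher in AMY include *Arhgap36*, *Dgkk*, *Gabrq* and *Gabre*.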
